A study of Mus musculus with 9 samples.

Results

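NF-κB is a family of dimeric transcription factors that macrophages use to switch on inflammatory genes. Its 5 subunits are encoded by *Nfkb1*, *Nfkb2*, *Rel*, *Rela* and *Relb*. The other 5 genes described here encode proteins that hold these dimers back or tune what they do: the IκB proteins of *Nfkbia* and *Nfkbie*, the nuclear IκB proteins of *Nfkbiz* and *Bcl3*, and the ubiquitin-editing enzyme of *Tnfaip3*. Below, these 5 are called the inhibitors for short, also where a protein tunes the dimers rather than holding them back. The 10 genes were taken by name from the known members of the pathway, with earlier results of these data known. All 10 were found among the 53801 genes of the count files, and all 10 passed the filter on low counts in each of the 3 comparisons. In every library each of them had at least 245 reads.

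At rest, IκB proteins bind NF-κB dimers and keep them in the cytoplasm. Cytokine and pattern recognition receptors activate the IκB kinase complex, IκB is degraded, and the freed dimers enter the nucleus and bind κB sites. Among the genes they switch on are their own inhibitors, above all *Nfkbia* and *Tnfaip3*, which end the response, and several of the subunits. Transcripts of these inhibitors are therefore widely read as the output of the pathway, whereas protein degradation and nuclear entry leave no direct mark in RNA. In the ischemic brain, NF-κB is known for its activity in microglia, infiltrating macrophages, endothelium and neurons.

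RNA was measured in monocytes/macrophages sorted by FACS as CD11c-Ly6G-CD11b+CD45high cells from male C57BL/6J mice 9 weeks of age. Mice of both stroke groups underwent permanent distal middle cerebral artery occlusion (dMCAO) together with ligation of the left common carotid artery. There were 3 libraries of stroke blood and 3 of stroke brain, taken 5 days after dMCAO, and 3 libraries of sham blood, for which the sources used here name no day. Each blood library came from 1 mouse, and each brain library was a pool of the ipsilesional hemispheres of 5 mice. Brain cells were released with an enzymatic kit in a heated dissociator and passed over Percoll, while blood cells were separated on Ficoll. Tissue and handling therefore cannot be told apart in any comparison of brain with blood. In addition, these are bulk samples, so that fewer cells of a type and less RNA per cell cannot be told apart.

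Total counts ranged from 18475118 to 22623578 per library. Monocyte/macrophage markers were present in all libraries, although 2 of 8, *Lyz2* and *Ly6c2*, fell in brain against both blood groups. For 6 of the 8, every brain library was lower than every stroke blood library, where this held for 23.2% of genes tested. For 1 every brain library was higher, where it held for 25.0%. The summed level of the 8 was 42868 to 49237 CPM (read count normalized to library size) in brain. It was 104648 to 111788 CPM in stroke blood and 91494 to 128225 CPM in sham blood. Markers of other cells also moved with tissue. All 8 microglial markers rose in brain, where their summed level was 1190 to 3497 CPM, against 149.6 to 206 CPM in stroke blood and 159 to 209 CPM in sham blood. In stroke blood *Sall1*, *Siglech* and *Olfml3* had at most 3 counts in each library, and in sham blood *Sall1* and *Olfml3* did. Microglia commonly carry less CD45 than the CD45high cells that the gate took, and dendritic cells commonly carry the CD11c that it left out. The paper states, however, that its bulk data cannot separate microglia that raise CD45 when activated from macrophages derived from monocytes. All 5 platelet markers and all 5 erythroid markers fell in brain. Against stroke blood, brain was also higher in 6 of 8 neutrophil, 6 of 7 dendritic cell, 3 of 4 border-associated macrophage, 3 of 8 T and NK cell and 2 of 5 neural and vascular markers tested. Border-associated macrophages had 1 marker that fell, and none of the 5 B cell markers tested passed. Against sham blood, brain was higher in 4 of 8 neutrophil, 3 of 7 dendritic cell, 3 of 4 border-associated macrophage, 1 of 8 T and NK cell and 2 of 5 neural and vascular markers. It was lower there in 5 of 6 B cell markers and in 1 border-associated macrophage marker. The part of these cells in the results below was not tested. Sham blood replicate 1 stood apart from the other sham libraries, with 12.9 CPM of platelet markers against 342 and 498 CPM, and 1082 CPM of erythroid markers against 30578 and 28313 CPM. Within the brain, replicate 1 had the lowest summed level of microglial markers and the highest of dendritic cell markers, at 934 CPM against 723 and 706 CPM.

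The promoters of the 10 genes were read for the sequence that NF-κB dimers bind. The κB consensus searched was a motif of 10 bases, made of 3 G, 1 purine, any 2 bases, 2 pyrimidines and 2 C, on both strands. RefSeq windows from 250 bases before to 50 bases after the transcript start (GRCm38.p6) were found for 7 of the 10 genes, while *Nfkb1*, *Relb* and *Nfkbiz* were not matched. The 130 bases before the RefSeq start are shown for 4 genes with a match there, with every base of a match in capitals. They are written 5′ to 3′ on the strand of the gene and lie at chr12:55492648-55492777 (minus strand) for *Nfkbia*, chr10:19015411-19015540 (minus) for *Tnfaip3*, chr17:45555570-45555699 (plus) for *Nfkbie*, and chr11:23770970-23771099 (minus) for *Rel*. For *Bcl3*, whose match begins 3 bases into the transcript, 30 bases around it at chr7:19822734-19822763 (minus) are given. For *Nfkb2*, 30 bases around the match farthest from the first start are given, at chr19:46304692-46304721 (plus), since GENCODE M21 places an exon of a longer *Nfkb2* transcript there. The GENCODE models of *Tnfaip3* and *Rela* also begin upstream of their RefSeq starts.
Nfkbia: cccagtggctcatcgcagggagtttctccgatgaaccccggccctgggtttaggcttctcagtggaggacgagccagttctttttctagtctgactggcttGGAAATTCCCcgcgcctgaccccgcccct
Tnfaip3: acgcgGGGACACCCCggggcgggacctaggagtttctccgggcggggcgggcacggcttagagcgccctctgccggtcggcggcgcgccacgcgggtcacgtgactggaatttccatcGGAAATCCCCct
Nfkbie: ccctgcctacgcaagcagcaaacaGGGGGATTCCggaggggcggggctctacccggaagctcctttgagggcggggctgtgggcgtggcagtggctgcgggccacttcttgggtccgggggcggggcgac
Rel: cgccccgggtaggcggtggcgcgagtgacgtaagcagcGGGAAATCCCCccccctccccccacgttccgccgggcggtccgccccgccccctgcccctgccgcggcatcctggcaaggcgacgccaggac
Nfkb2: cgtcacGGGAATTCCCCccctcggggggcc
Bcl3: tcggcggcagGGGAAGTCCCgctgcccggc

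A match was present in 6 of the 7 genes with a window. Of all 27025 genes with a window, 9.55% held at least 1 match in any of their windows, and so did 11.9% of the genes tested in brain versus stroke blood. The *Nfkbia* match began 29 bases before the start, on the other strand. *Tnfaip3* had 2 stretches at its first start, 125 and 12 bases before it, and none in the window of its second start. *Rel* and *Nfkb2* each had overlapping matches on both strands, 92 bases and 39 bases before the start, and *Nfkb2* had a further match 11 bases before it. In *Nfkbie* the match began 106 bases before the start. The window of *Rela* held no match, which says only that these letters are not in it. A match is a description of the sequence and does not show binding.

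**Figure D1:**
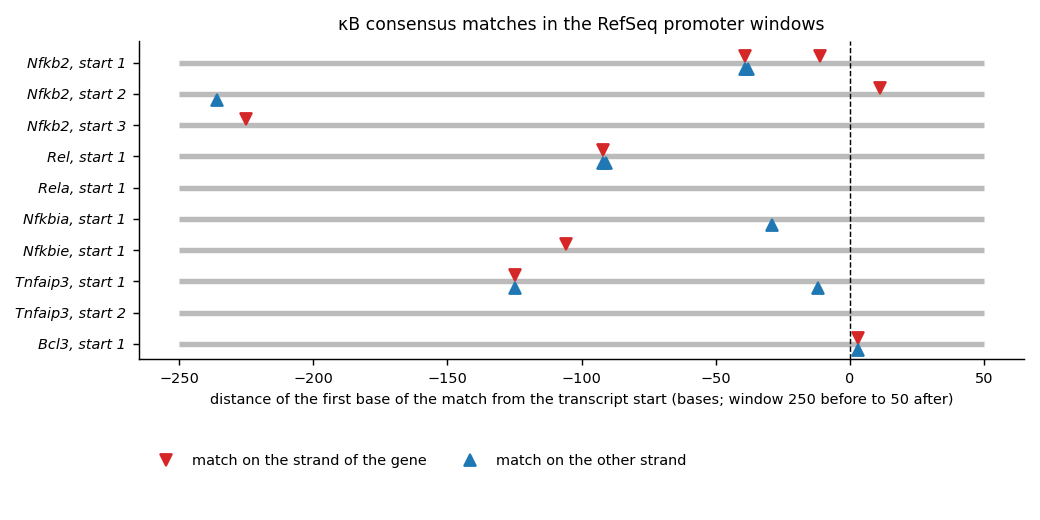
Position of κB consensus matches (triangles, one colour and direction per strand) in the RefSeq promoter windows of the 7 genes found in the table, as distance in bases from the transcript start. *Nfkb2* has 3 windows and *Tnfaip3* has 2; no match is drawn for *Rela* or the second *Tnfaip3* start.

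To find out how the pathway differed between cells in the brain and cells in the circulation of the same disease, stroke brain was compared with stroke blood. Of the inhibitors, *Tnfaip3*, *Nfkbiz* and *Nfkbia* rose in the cells sorted from brain, by 10.2-fold, 4.18-fold and 2.17-fold. Of the subunits, *Rela* rose by 2.20-fold. A differentially expressed gene (DEG) was one that edgeR's quasi-likelihood test gave a Benjamini-Hochberg adjusted p below 0.05, over all 13189 genes tested, and whose log2 fold change exceeded 1 in size. Thus 4 of the 10 genes were DEGs that rose, where 13.1% of all genes tested did, and 0 fell, where 7.86% did. DESeq2 called 5 rises and 0 falls. The median log2 fold change of the 10 genes was 1.00, and that of all genes tested was 0.06. The libraries of the groups did not overlap for 8 genes that were higher in brain, where this held for 25.0% of genes tested, and for 1 that was lower, where it held for 23.2%.

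**Figure D2:**
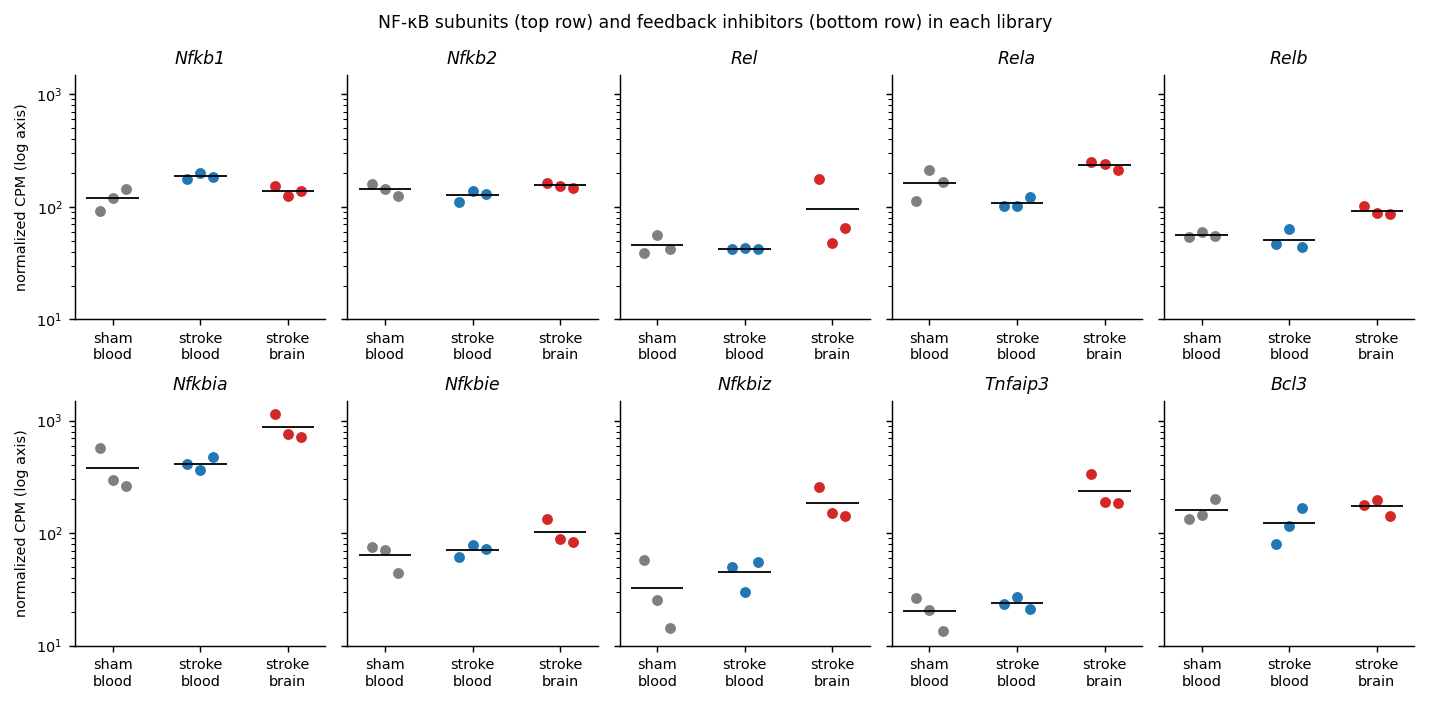
Normalized CPM on a log axis of the 5 subunits (top) and 5 inhibitors (bottom), with 1 point per library and a line at the mean of 3 libraries. For *Tnfaip3* the brain libraries, 187 to 336 CPM, stand far above all 6 blood libraries, 13.6 to 26.8 CPM; *Rel* reaches 176 CPM in 1 brain library.

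*Tnfaip3* (chr10:19000910-19015657, minus strand, in GRCm38 coordinates from GENCODE M21, as for all genes here) encodes the enzyme that removes activating ubiquitin chains from the adaptors upstream of the IκB kinases. It measured 23.6, 26.8 and 21.0 CPM in the stroke blood replicates 1 to 3, and 336, 191 and 187 CPM in the brain replicates. All brain libraries were far above all blood libraries, and replicate 1 was the highest of the brain. The log2 fold change was 3.35 ± 0.27 (SE; n = 3 per group; edgeR adjusted p = 4.9e-05), a 10.2-fold difference, and only 502 of the 13189 genes tested had a larger rise. It was called with each of the 6 libraries left out, at log2 fold changes of 3.02 to 3.51.

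*Nfkbiz* (chr16:55811375-55838899, minus strand) encodes a nuclear IκB protein that acts on a subset of secondary NF-κB targets. Its level was 50.2, 30.2 and 55.3 CPM in stroke blood and 259, 149.9 and 142 CPM in brain. Again no blood library reached the lowest brain library. The log2 fold change was 2.06 ± 0.29 (SE; edgeR adjusted p = 0.001), and it remained a DEG with any library left out, at 1.73 or more.

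*Nfkbia* (chr12:55489410-55492647, minus strand) encodes the classical cytoplasmic inhibitor IκBα. It was the most abundant of the 10 transcripts, also per kilobase of exon, where it reached 546 ± 146 CPM per kb in brain and 258 ± 34.4 CPM per kb in stroke blood (SD, n = 3). In CPM the stroke blood libraries measured 411, 363 and 474, and the brain libraries 1149.8, 767 and 722. The groups were apart, with brain replicate 1 highest once more. The edgeR adjusted p was 0.0036, and a log2 fold change of 1.12 ± 0.21 (SE) placed it just past the fold threshold. Without brain replicate 1 it was 0.88, and without stroke blood replicate 2 it lay just under the threshold, so that it was a DEG in 4 of the 6 fits with a library left out although its adjusted p stayed at or below 0.025 in all of them.

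The remaining inhibitors did not pass. *Nfkbie* (chr17:45555703-45563169, plus strand), which encodes IκBε, measured 60.9, 79.0 and 71.8 CPM in stroke blood and 133, 89.4 and 84.1 CPM in brain. Its brain libraries were all higher, but at a log2 fold change of 0.57 ± 0.22 the edgeR adjusted p was 0.074. *Bcl3* (chr7:19808462-19822770, minus strand), a nuclear IκB protein that pairs with the smaller subunit homodimers, measured 80.9, 116 and 169 CPM in stroke blood and 178, 198 and 143 CPM in brain. These ranges overlapped, and the log2 fold change was 0.54 ± 0.25 (SE; edgeR adjusted p = 0.13).

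Among the subunits, *Rela* (chr19:5637483-5648130, plus strand) encodes the main transactivating partner of the classical dimer. It measured 102, 102 and 123 CPM in stroke blood and 251, 238 and 214 CPM in brain, without overlap and with little spread in either group. Its log2 fold change reached 1.14 ± 0.15 (SE; edgeR adjusted p = 0.00069), and it was a DEG in all 6 fits with a library left out (1.06 to 1.21). *Relb* (chr7:19606217-19629438, minus strand), the transactivating subunit of the alternative pathway, measured 46.9, 63.1 and 43.6 CPM in stroke blood and 102, 88.9 and 86.5 CPM in brain. It differed at an edgeR adjusted p of 0.0087, but with a log2 fold change of 0.88 ± 0.20 it was not a DEG. At an adjusted p below 0.05 without the fold threshold, 5 of the 10 genes were higher in brain, where 17.5% of genes tested were.

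*Rel* (chr11:23736847-23770970, minus strand) encodes c-Rel, a transactivating subunit that lymphoid and myeloid cells induce on stimulation. The stroke blood libraries were nearly alike, at 41.8, 42.8 and 42.0 CPM, whereas the brain libraries measured 176, 47.4 and 65.4 CPM. Brain was higher in every library, but most of the difference came from replicate 1. A log2 fold change of 1.22 ± 0.42 (SE) had an edgeR adjusted p of 0.052, and without that library it was 0.45 (edgeR adjusted p = 0.11). DESeq2 called it at an adjusted p of 0.0074, so that the call on *Rel* depends on the test. The brain replicate with this high *Rel* was also the highest of the 3 for *Rela*, *Relb*, *Nfkbia*, *Nfkbie*, *Nfkbiz*, *Tnfaip3*, *Nfkb1* and *Nfkb2*, and with it left out the count of rises among the 10 genes was 3 instead of 4.

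The genes of the subunits made as precursors did not pass the test. *Nfkb1* (chr3:135584655-135691547, minus strand) measured 176, 199 and 185 CPM in stroke blood and 152, 125 and 139 CPM in brain, so that every brain library was lower. The log2 fold change was -0.39 ± 0.15 (SE; edgeR adjusted p = 0.076). *Nfkb2* (chr19:46304320-46312385, plus strand) measured 111, 139 and 129 CPM in stroke blood and 164, 153 and 148 CPM in brain, which gave 0.33 ± 0.15 on the log2 scale (edgeR adjusted p = 0.14). Of the exon bases of *Nfkb2*, 6.52% overlap the opposite-strand gene *Psd* and 11.6% an opposite-strand long noncoding RNA, and 6.51% of those of *Bcl3* overlap *Gm16175*. Since the strand setting of the counting is not given in the sources used here, values of these genes are less certain, although *Psd* never exceeded 312 counts and *Gm16175* never exceeded 1.

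**Figure D3:**
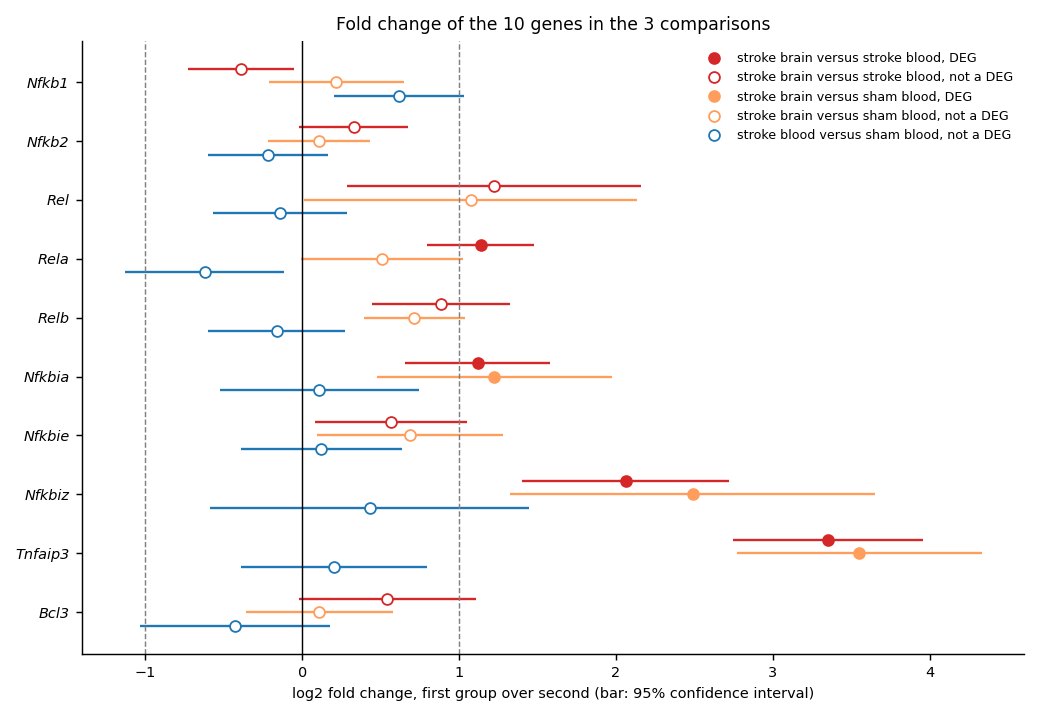
Log2 fold change with its 95% confidence interval for each gene in the 3 comparisons, filled where the gene was a DEG; dashed lines mark the fold threshold. The intervals of *Tnfaip3* and *Nfkbiz* lie wholly above 1 in both comparisons of brain with blood, and no symbol is filled for stroke blood versus sham blood.

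The same brain libraries were next set against sham blood, the circulating cells of mice without a stroke. The 3 inhibitors *Tnfaip3*, *Nfkbiz* and *Nfkbia* were again higher, and no subunit was a DEG. Of the 10 genes, 3 rose, where 9.75% of the 13020 genes tested did, and 0 fell, where 3.67% did. DESeq2 also called 3 rises and 0 falls. The median log2 fold change of the 10 genes was 0.70, against 0.01 for all genes tested, and 6 of them were higher in every brain library than in every sham library, where 22.2% of genes tested were. Both comparisons use the same brain libraries, and are therefore not independent.

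*Tnfaip3* measured 26.4, 20.8 and 13.6 CPM in the sham replicates 1 to 3, well under the 187 CPM of the lowest brain library. The log2 fold change was 3.55 ± 0.34 (SE; n = 3 per group; edgeR adjusted p = 0.00082), and it passed with each library left out. *Nfkbiz* measured 58.0, 25.5 and 14.4 CPM in sham blood, differing by 2.49 ± 0.50 on the log2 scale (edgeR adjusted p = 0.014). Without sham replicate 2 its adjusted p was 0.057. *Nfkbia* measured 568, 298 and 261 CPM in sham blood, below the lowest brain library at 722 CPM. Its log2 fold change was 1.22 ± 0.32 (edgeR adjusted p = 0.035), and it was a DEG in only 1 of the 6 fits with a library left out, namely without sham replicate 1, where the log2 fold change was 1.65. Sham replicate 1 was the highest sham library for all 3 of these inhibitors, and it is the library that stood apart in platelet and erythroid markers.

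For *Rela*, the sham libraries measured 114, 213 and 166 CPM and spanned much of the distance between stroke blood and brain. The log2 fold change of brain over sham blood was 0.51 ± 0.22 (edgeR adjusted p = 0.15), and without sham replicate 1, the lowest of the sham libraries, it was 0.31. *Relb* was steadier, at 53.8, 59.6 and 55.4 CPM in sham blood, and differed from brain by 0.72 ± 0.14 (edgeR adjusted p = 0.012) without reaching the fold threshold. At an adjusted p below 0.05 without that threshold, 4 of the 10 genes were higher in brain, where 12.1% of genes tested were. *Rel* measured 38.5, 56.4 and 41.8 CPM in sham blood, overlapping the brain range, and differed by 1.07 ± 0.46 (edgeR adjusted p = 0.14), or 0.30 without brain replicate 1. *Nfkbie*, at 74.6, 71.1 and 44.3 CPM in sham blood, differed by 0.69 ± 0.26 (edgeR adjusted p = 0.1). The other genes overlapped between the groups: *Nfkb1* at 92.7, 121 and 144 CPM, *Nfkb2* at 161, 145 and 125 CPM, and *Bcl3* at 133, 144 and 203 CPM in sham blood. Their log2 fold changes were 0.22, 0.11 and 0.11.

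Whether stroke altered the pathway in circulating cells was examined in stroke blood versus sham blood. None of the 10 genes was a DEG by edgeR or by DESeq2. edgeR called 1 gene of the 12664 tested, or 0.0079%, and DESeq2 called 127. At an unadjusted p below 0.05, 2 of the 10 genes differed by edgeR, where 12.5% of genes tested did: *Nfkb1* was higher by 0.62 ± 0.18 on the log2 scale (edgeR adjusted p = 0.3) and *Rela* lower, at -0.62 ± 0.22 (edgeR adjusted p = 0.34). *Nfkb1* was the 1 gene of the 10 whose libraries did not overlap, at 176 to 199 CPM in stroke blood and 92.7 to 144 CPM in sham blood, which held for 18.1% of genes tested in either direction. For *Rela*, 1 sham library at 114 CPM fell inside the stroke blood range of 102 to 123 CPM. The inhibitors gave no call. The 95% confidence interval of the log2 difference was -0.39 to 0.79 for *Tnfaip3*, -0.52 to 0.74 for *Nfkbia* and -0.58 to 1.44 for *Nfkbiz*, so that a difference as large as that between brain and stroke blood lies outside all 3 intervals. For *Nfkbie* it was -0.39 to 0.64 and for *Bcl3* -1.03 to 0.18, and for *Nfkb2*, *Rel* and *Relb* the log2 fold changes were -0.22, -0.14 and -0.16.

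The make-up of the subunit pool was then described as the share of each gene in the summed CPM per kb of the 5 subunits, library by library. By this measure *Rela* was the most abundant subunit transcript in every group. It stood at 76.3 ± 6.18 CPM per kb in brain, 35.5 ± 3.95 in stroke blood and 53.5 ± 16.2 in sham blood (SD, n = 3). *Nfkb2* came next in every group. Below these the order differed: in brain *Relb*, *Rel* and *Nfkb1* followed, in stroke blood *Nfkb1*, *Relb* and *Rel*, and in sham blood *Relb*, *Nfkb1* and *Rel*. In brain the ranges of *Rel*, 6.34 to 23.5 CPM per kb, and *Nfkb1*, 10.4 to 12.6 CPM per kb, overlapped, so that their order there is not settled. The order also depends on the exon length, 12061 bases for *Nfkb1* and 3072 for *Rela*. Without dividing by it, *Nfkb1* had the largest share in stroke blood, at 36.8%, 36.4% and 35.4%. *Rela* then held 21.4%, 18.7% and 23.6% there.

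The share of *Rela* was 45.4%, 51.5% and 48.2% in the brain libraries and 37.1%, 32.6% and 39.9% in the stroke blood libraries, apart by 11.8 points on average. In sham blood it was 37.5%, 51.8% and 47.8%, which overlapped both other groups and lay 2.68 points below brain on average (two-sided exact permutation p = 0.7). That of *Nfkb1* was 7.02%, 6.89% and 7.99% in brain, 16.3%, 16.1% and 15.3% in stroke blood, and 7.78%, 7.47% and 10.6% in sham blood. Stroke blood was thus higher in *Nfkb1* share than every library of both other groups, with a difference of 7.28 points to sham blood and, as brain minus stroke blood, of -8.58 points. *Nfkb2* made up 21.5% ± 1.42 in brain and 28.2% ± 1.44 in stroke blood (SD, n = 3), also without overlap. When not divided by exon length, its shares were 19.4%, 23.5% and 22.7% in brain. In stroke blood they were then 23.2%, 25.5% and 24.7%, and the groups overlapped. As brain minus sham blood, per kb, *Nfkb2* differed by -6.27 points and *Relb* by 2.39 points, both without overlap. *Relb* held 15.1% ± 0.400 in brain and 13.5% ± 2.37 in stroke blood, with overlap, and *Rel* rested on brain replicate 1, at 13.1% against 4.21% and 6.06% in the other brain libraries. With 3 libraries per group the two-sided exact permutation test cannot go below p = 0.1, the value of each of these differences without overlap. Adjusted over the 15 comparisons of shares the lowest was 0.25, so that none passes a threshold of 0.05.

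**Figure D4:**
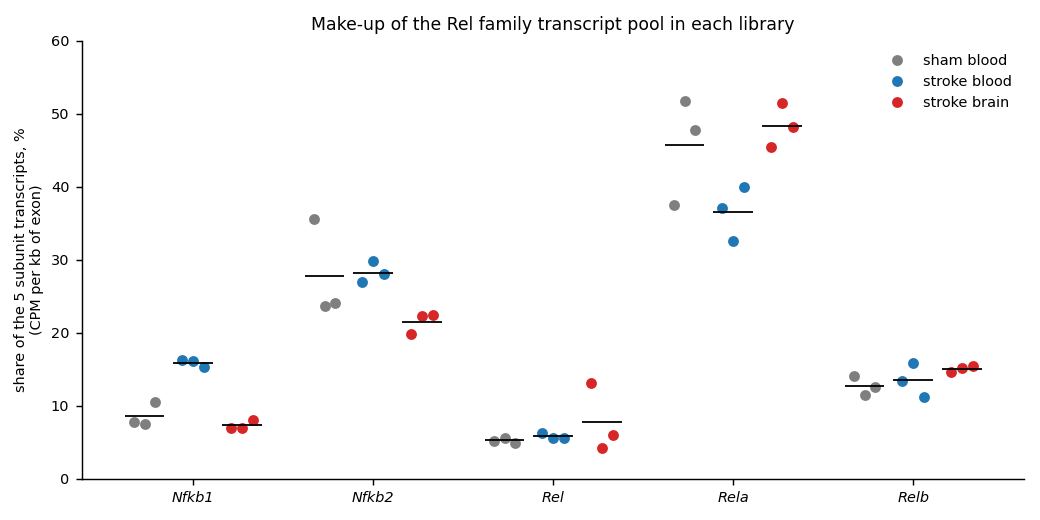
Share of each subunit in the summed CPM per kb of exon of the 5 subunits, with 1 point per library and a line at the mean of 3 libraries. The *Nfkb1* share of stroke blood, 15.3% to 16.3%, lies above all libraries of the other groups, and the *Rela* share of brain lies above that of stroke blood.

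Inhibitor and subunit can also be set against each other within a library. The ratio of *Nfkbia* to *Rela* in CPM per kb was 8.73, 6.15 and 6.44 in brain and 7.66, 6.79 and 7.33 in stroke blood, so that the ranges overlapped while both transcripts were higher in brain. In sham blood it was 9.54 in replicate 1, and 2.67 and 3.00 in the others. For *Tnfaip3* the ratio to *Rela* was 0.568, 0.341 and 0.372 in brain and 0.0979, 0.112 and 0.0725 in stroke blood, without overlap, and 0.0987, 0.0415 and 0.0347 in sham blood. The ratio of *Nfkbiz* to *Rela* was 0.631, 0.386 and 0.406 in brain, 0.300, 0.181 and 0.275 in stroke blood, and 0.312, 0.0733 and 0.0530 in sham blood. These ratios were chosen after the values were seen and were not tested.

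Other genes of the pathway were read from lists of its known members. Of 15 further brakes on NF-κB, 3 rose in brain over stroke blood and 0 fell, with a median log2 fold change of 0.43, where 13.1% of all genes tested rose. The count is thus not far from that of genes in general. These were *Otulin*, a deubiquitinase of linear chains (9.30 to 24.3 CPM in stroke blood, 130.5 to 163 CPM in brain; 2.94 ± 0.33, edgeR adjusted p = 0.00029), *Nfkbid*, a further nuclear IκB protein (2.82 ± 0.23, edgeR adjusted p = 5e-05), and *Tnip3*, a partner of the *Tnfaip3* product (2.06 ± 0.24, edgeR adjusted p = 0.00037). Against sham blood 2 of the 15 rose, *Nfkbid* and *Tnip3*, where 9.75% of all genes tested did. *Otulin* spanned 8.26 to 90.5 CPM in sham blood.

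Upstream of the subunits, of 22 kinases and adaptors, 2 rose in brain over stroke blood and 1 fell, with a median of 0.15. Both counts were below the shares over all genes tested, 13.1% and 7.86%. They were *Map3k7*, the kinase upstream of the IκB kinases (1.67 ± 0.20), *Irak2*, a kinase-like adaptor of the interleukin-1 and Toll-like receptors (1.23 ± 0.19), and *Tab2*, a partner of the *Map3k7* kinase (-1.07 ± 0.28, edgeR adjusted p = 0.019). Against sham blood 1 rose, *Irak2*, and 0 fell, where 9.75% and 3.67% of all genes tested did. Of 8 receptors 2 rose over stroke blood and 0 fell, where 13.1% and 7.86% of all genes tested did, with a median of 0.17. The 2 were *Tlr2*, which senses bacterial lipoproteins (1.56 ± 0.18, edgeR adjusted p = 0.00037), and *Tnfrsf11a*, the receptor of the RANK ligand (1.80 ± 0.38, edgeR adjusted p = 0.0067). The libraries did not overlap for 3 receptors that were higher in brain, where this held for 25.0% of genes tested, and for 3 that were lower, where it held for 23.2%. Against sham blood 1 of the 7 receptors tested rose, *Tnfrsf11a*, and 0 fell, again where 9.75% and 3.67% did, with a median of -0.12.

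Of 22 textbook target genes of NF-κB 20 were tested. In brain over stroke blood 14 of these rose and 0 fell, where 13.1% and 7.86% of all genes tested did. The median log2 fold change was 2.64. Against sham blood 13 rose and 0 fell, where 9.75% and 3.67% did, with a median of 2.41. The 3 with the largest fitted rise were *Il1a*, *Vcam1* and *Ptgs2*. *Il1a*, a cytokine of the interleukin-1 family, measured 33.9 to 85.3 CPM in brain and had at most 1 count in each stroke blood library, so that it was at least 340-fold higher when set against 3 counts in each library. *Vcam1*, an adhesion molecule, measured 6.74 to 11.8 CPM in brain and 0 counts in every stroke blood library, so that it was at least 55.3-fold higher by the same measure. Its place among the 3 rests on the fitted value, since *Cd83*, a surface protein of activated antigen-presenting cells, rose 88.1-fold by the edgeR fit. *Cd83* measured 693 to 1960 CPM in brain and 10.4 to 17.5 CPM in stroke blood, with means of 1131 and 13.2 CPM. *Ptgs2*, the inducible cyclooxygenase, was at 74.5 to 107 CPM in brain and 0.612 to 0.898 CPM in stroke blood (log2 fold change 6.96 ± 0.27, edgeR adjusted p = 9.6e-07). Bounds set from 3 counts reflect counting error alone, and not the spread between libraries.

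**Figure D5:**
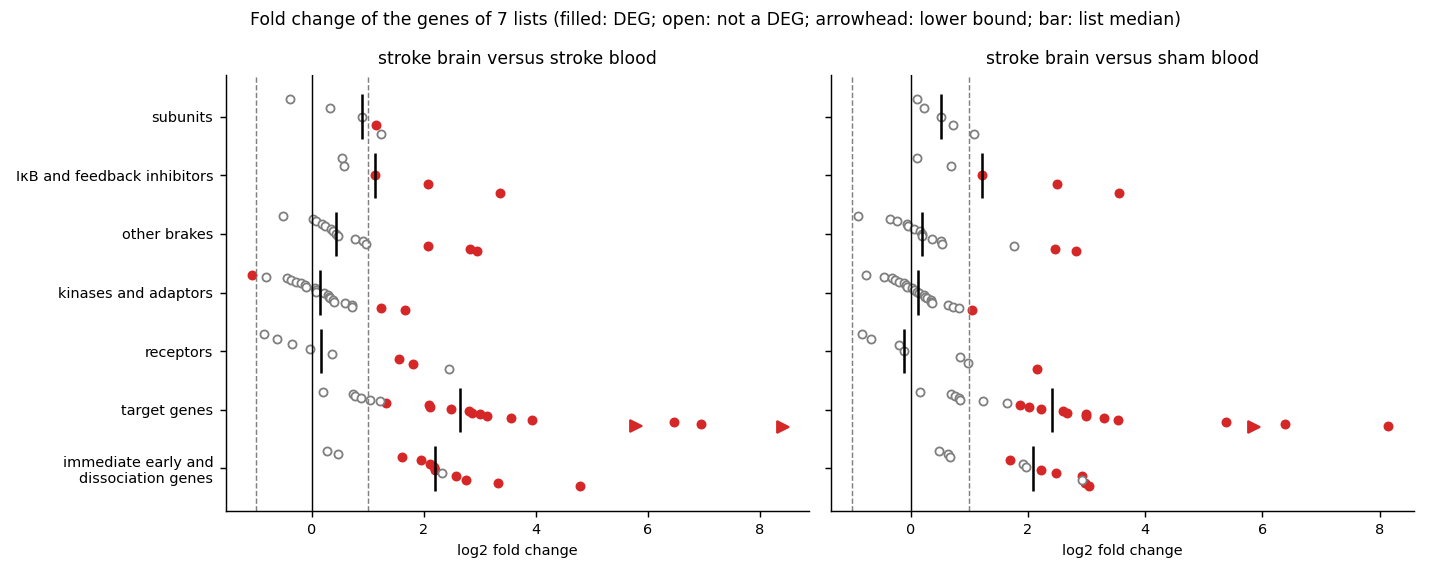
Log2 fold change of every tested gene of 7 lists in brain versus stroke blood (left) and brain versus sham blood (right), filled where the gene was a DEG, with a bar at the median of each list and arrowheads for lower bounds. Target genes and immediate early genes have medians of 2.64 and 2.19 in the left panel, and kinases and adaptors 0.15.

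Immediate early and stress genes, which tissue dissociation at warm temperature can also induce, moved in the same comparison. Of 12 such genes, 9 rose in brain over stroke blood and 0 fell, where 13.1% and 7.86% of all genes tested did. The median log2 fold change was 2.19. Against sham blood 6 rose and 0 fell, where 9.75% and 3.67% of all genes tested did. Their summed level was 14232 to 15832 CPM in brain, 3753 to 5290 CPM in stroke blood and 2458 to 6052 CPM in sham blood. The largest rises were those of *Egr1* (4.79 ± 0.28), *Atf3* (3.33 ± 0.17) and *Hspa1a* (2.75 ± 0.34), all with edgeR adjusted p at or below 0.00047. Sham replicate 1, the highest sham library for *Nfkbia*, *Nfkbiz* and *Tnfaip3*, was also the highest of the sham libraries in this sum and in each of the 12 genes. Brain replicate 1, the highest brain library for *Tnfaip3*, *Nfkbiz*, *Nfkbia* and *Nfkbie*, was the highest in 7 of the 12. Its sum was the lowest of the brain, with *Fos* at 1848 CPM against 3991 and 4263 CPM. Without *Fos*, left out after the values were seen, its sum was the highest, at 12383 CPM against 10760 and 11569 CPM. Without *Nr4a1* instead, also picked after the values were seen, its sum was the lowest, at 11119 CPM against 14060 and 14967 CPM. The rank of its sum thus depends on the gene left out. The part of dissociation in the rise of the inhibitors was not tested.

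Matches to the κB consensus were counted in the promoter windows of these lists in the same way. They were present in 6 of 13 further brakes, *Nfkbid* and *Tnip3* among them, in 7 of 17 target genes, in 2 of 6 receptors, *Tlr2* being 1 of them, in 3 of 17 kinases and adaptors and in 5 of 10 immediate early genes, where 9.55% of all genes with a window held one.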

How the data were processed

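There were 3 libraries each of sham blood, stroke blood and stroke brain, and the groups follow the labels for tissue and surgery. Per the paper's methods, the authors ran FastQC in Chipster, aligned reads to GRCm38 with HISAT2 and assigned them to genes with HTSeq. The deposited values are raw read counts per gene, without any normalization. Software versions, the annotation release and the strand setting are not given in the sources used here. Libraries were amplified by PCR without molecular identifiers. Total counts were 18475118 to 22623578 per library.

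Group differences were tested with edgeR 4.0.16 (R 4.3.3), in a quasi-likelihood fit of the 2 groups compared, after TMM normalization and the filter of filterByExpr, with Benjamini-Hochberg adjustment over all genes tested. The standard error was derived from the F statistic. Levels are TMM-normalized CPM, where stated per kb of the union of exons in GENCODE M21, which holds 53706 of the 53801 identifiers. Shares were compared with the exact permutation test. DESeq2 1.42.0, other scalings, no filter, a fit of all 9 libraries, a replicate block, other thresholds and leaving out each library served as alternatives. Scripts were tested on simulated data. Promoter windows came from RefSeq, and Python 3.11.15 with numpy 2.4.6, scipy 1.17.1, pandas 2.3.3 and matplotlib 3.10.9 was used for tables and figures.

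All 10 genes are named in each comparison. Of each pathway list, counts and up to 3 DEGs with the largest change between brain and stroke blood are named, and in addition the 5 genes most like *Nfkbia* and *Rela*. Genes and lists were chosen with earlier results of these data known. *Psd* and *Gm16175* are named for their overlap, and *Sall1*, *Siglech*, *Olfml3*, *Lyz2*, *Ly6c2*, *Cd83*, *Fos* and *Nr4a1* were picked after their values were seen. Replicates of a group were no copies of a library, since a chi-square of their counts per degree of freedom was 23.9 to 136. Blood libraries are separate mice and brain libraries separate pools.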

Additional observations from a re-analysis of the deposited data

How the results depend on the processing

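All 4 rises over stroke blood were called under DESeq2, RLE normalization, library size alone, no filter, all 9 libraries in 1 fit and the replicate block, and so were the 3 rises over sham blood. *Rel* was also called over stroke blood by DESeq2, with library size alone (adjusted p = 0.036), with no filter (0.014) and with all 9 libraries (0.043), and *Relb* with library size alone (log2 fold change 1.04), which shifted the median of all genes by 0.15, and by 0.12 over sham blood. Same-numbered libraries did not deviate together (correlations of -0.07 to 0.07), and differently numbered ones gave -0.08 to 0.12. With 3 libraries per group and pooled brains, these values cannot decide whether the numbers pair them. The replicate block gave 2634, 1571 and 1 DEGs in brain versus stroke blood, brain versus sham blood and stroke versus sham blood, against 2771, 1748 and 1, and changed no call of the 10 genes. In stroke versus sham blood the 1 DEG rose in the main fit and fell with the block, so it was not the same call.

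At an adjusted p below 0.01, there were 1793, 792 and 0 DEGs, and 1 of the 10 genes rose over sham blood. Leaving out each library gave 2258 to 3014, 1146 to 1883 (1146 without sham replicate 3) and 0 to 16 DEGs, and 3 to 5 and 1 to 3 rises among the 10 genes over stroke and sham blood. The count of 1 rested on sham replicate 2, without which *Nfkbiz* and *Nfkbia* were not called. For stroke versus sham blood, DESeq2 called 127 DEGs (48.0% higher) and no filter 160 (36.9% higher), none of them among the 10 genes, and the most, 16, came without sham replicate 1.

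Signs turned only for uncalled values. With a library left out, *Bcl3* in brain over sham blood ranged from -0.0047 to 0.31, and in stroke over sham blood *Rel* ranged from -0.25 to 0.039, *Nfkbia* from -0.11 to 0.54, *Nfkbie* from -0.088 to 0.26 and *Tnfaip3* from -0.026 to 0.44. Shares likewise ranged in points: *Rel* from -0.69 to 3.73 over stroke blood and from -0.14 to 4.29 over sham blood, *Rela* from -1.43 to 5.74 over sham blood, and in stroke over sham blood *Nfkb2* from -1.58 to 4.37 and *Relb* from -0.38 to 1.99. Without dividing by exon length, stroke minus sham blood shares were -3.17 for *Nfkb2*, -0.36 for *Rel* and -0.80 for *Relb*. The cause of these changes was not tested. Depth limits the genes at or near 0 counts in blood, such as *Il1a* and *Vcam1*, for which only a bound is given.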

Other observations

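Over the 9 libraries, the transcripts whose log2 CPM ran most closely with *Nfkbia* among 13612 genes were *Trib1*, a pseudokinase gene (Pearson's r = 0.99), *Nfkbiz* (0.98), *Ccrl2*, an atypical chemoattractant receptor gene (0.98), *Larp7* (0.97) and *Ppp1r15a*, a gene of the integrated stress response (0.97). *Nfkbiz* thus ranked second of all genes, *Tnfaip3* ranked 82 (r = 0.91) and *Nfkbie* 258 (r = 0.87), while *Rela* ranked 3283 (r = 0.47), *Bcl3* 5118 (r = 0.22) and *Nfkb1* 7693 (r = -0.16). *Ccrl2* averaged 277 CPM in brain, 30.2 CPM in stroke blood and 34.5 CPM in sham blood, and *Ppp1r15a* 353, 53.3 and 54.1 CPM.

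Closest to *Rela* were *Trim8*, *Zdhhc5*, *Cdk17*, *Btbd1* and *Ptov1*, each at r = 0.98. Of the other 9 genes described here *Relb* ranked closest, at 906 (r = 0.79) and *Nfkb1* 8982 (r = -0.34). The 9 points of each correlation fall into 3 groups of libraries that share tissue and handling, so that these values describe the libraries and carry no test.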
